A study of Homo sapiens with 12 samples.

Results

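The question was which genes had hnRNPK peaks called only with, or only without, overexpression of the long noncoding RNA CRLM1. For this, 4 hnRNPK peak lists from the established colorectal carcinoma line HCT116 were compared gene by gene. The members were all peak lists labelled as hnRNPK immunoprecipitations with CRLM1 overexpression (CRLM1-OE, n = 2) or with an empty control construct (n = 2), which are 4 of the 6 peak lists of the series. The cells of both groups also overexpressed hnRNPK, as the study's text rather than the labels describes. How the constructs were brought into the cells used for ChIP-seq is not given in the sources used here. The series holds 12 samples in all, and the lists of the antisense construct were not used here. Each list came from 1 immunoprecipitated library called by the authors against the input library of its own group and number. On chromosomes 1 to 22, X and Y the CRLM1-OE lists held 4339 and 3163 peaks (replicates 1 and 2) and the empty control lists 1619 and 2607. The read depth behind each list is unknown, and a difference in depth and a difference between groups cannot be told apart. Median peak width was 506 and 747 bp in CRLM1-OE and 720 and 516 bp in the empty control, so width crossed the groups. Nothing in the labels says whether the 2 replicates of a group came from separate cultures, and the spread between them may be technical.

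hnRNPK is an abundant nuclear protein whose KH domains bind C-rich stretches of RNA and of single-stranded DNA, and it takes part in transcription, splicing and mRNA stability. It is known in colorectal cancer as a cofactor of transcription and as a partner of several long noncoding RNAs. A ChIP-seq peak marks a stretch of DNA that was recovered more often with the antibody than in the input, whether the protein touched the DNA itself or a nascent RNA or another protein on it. A gene was called met by a list when at least 1 bp of a peak fell on its interval. Under the gene rule the interval was the gene body plus the 5 kb upstream, and under the start rule it was the 1 kb on each side of the transcription start site (TSS), for which the first base of each gene in GENCODE was used. A gene belonged to a group when both lists of that group met it and neither list of the other did. Peaks were compared between lists by their score rank, the place of a peak in its own list when sorted by the authors' score, in percent, where a low value is a strong peak.

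The DNA under the peaks is shown first, for both groups. For CRLM1-OE, the promoters of CCDC85B, a coiled-coil protein, INSR, the insulin receptor, KLF2, a zinc finger transcription factor, and MARCKSL1, a regulator of the actin skeleton, are given because RefSeq and GENCODE place their start at the same base, all 280 bases shown lay inside the peak of both CRLM1-OE lists and no base lay in a peak of either control list. They run from 250 bases before the start to 30 bases after it, are credited to RefSeq on GRCh38.p14, and read 5′ to 3′ along the gene at chr11:65890423-65890702 (plus strand), chr19:7294385-7294664 (minus strand), chr19:16324576-16324855 (plus strand) and chr1:32336204-32336483 (minus strand). Capitals mark the C-rich word CCCTCCC or its reverse complement GGGAGGG, and the GC box GGGCGG or its reverse complement CCGCCC.
CCDC85B: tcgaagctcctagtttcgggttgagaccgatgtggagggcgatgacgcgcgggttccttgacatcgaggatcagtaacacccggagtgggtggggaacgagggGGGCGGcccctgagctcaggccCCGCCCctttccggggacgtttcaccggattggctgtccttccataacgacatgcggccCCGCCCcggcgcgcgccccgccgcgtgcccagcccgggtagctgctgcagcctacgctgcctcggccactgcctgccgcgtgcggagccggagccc
INSR: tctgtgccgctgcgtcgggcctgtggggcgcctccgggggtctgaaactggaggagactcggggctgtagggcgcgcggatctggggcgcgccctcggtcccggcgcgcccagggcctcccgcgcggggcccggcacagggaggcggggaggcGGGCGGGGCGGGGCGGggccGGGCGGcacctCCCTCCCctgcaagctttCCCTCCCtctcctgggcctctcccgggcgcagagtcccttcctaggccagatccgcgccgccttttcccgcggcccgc
KLF2: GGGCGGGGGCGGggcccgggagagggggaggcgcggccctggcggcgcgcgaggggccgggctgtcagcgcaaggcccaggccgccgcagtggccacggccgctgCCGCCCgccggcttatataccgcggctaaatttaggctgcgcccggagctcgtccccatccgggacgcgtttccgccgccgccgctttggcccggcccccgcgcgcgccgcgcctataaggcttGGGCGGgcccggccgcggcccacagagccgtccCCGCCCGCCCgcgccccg
MARCKSL1: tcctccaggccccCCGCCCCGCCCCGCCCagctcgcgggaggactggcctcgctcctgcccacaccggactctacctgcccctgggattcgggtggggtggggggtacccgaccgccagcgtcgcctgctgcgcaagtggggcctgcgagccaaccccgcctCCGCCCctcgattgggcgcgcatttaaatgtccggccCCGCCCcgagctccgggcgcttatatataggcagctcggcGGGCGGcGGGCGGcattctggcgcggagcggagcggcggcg
G and C made up 70.0%, 78.2%, 80.7% and 74.6% of these 4 stretches in that order. The GC box occurred 3, 4, 6 and 7 times, counting both strands and overlapping matches, and the C-rich word occurred 2 times in INSR and 0 times in the other 3. KLF2 had weak peaks and was not in the CRLM1-OE group in lists of equal length, as described below.

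For the empty control, the stretches shared by the peaks of both control lists are given for SMAD9, a transcription factor of BMP signalling, and for the long noncoding RNA genes LINC02771, LINC01548 and ENSG00000285155, the last of which shares its peaks with LINC02478. The best peaks of both control lists overlapped at 6 genes of that group, and 1 of these is not shown here. The stretches, or 250 bases from the middle of the longer ones, were read from hg38 along the gene at chr1:212468184-212468433, chr13:36890317-36890416, chr21:33172443-33172551 and chr2:160270292-160270541, all on the minus strand. No base of them lay in a CRLM1-OE peak or in an annotated UTR.
LINC02771: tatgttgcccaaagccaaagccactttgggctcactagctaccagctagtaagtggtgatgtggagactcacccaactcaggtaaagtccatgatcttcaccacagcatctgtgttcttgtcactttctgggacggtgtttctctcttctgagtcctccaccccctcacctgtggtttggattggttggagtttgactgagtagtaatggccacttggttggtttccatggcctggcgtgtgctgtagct
SMAD9: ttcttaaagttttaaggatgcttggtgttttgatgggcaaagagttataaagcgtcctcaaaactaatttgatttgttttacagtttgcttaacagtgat
LINC01548: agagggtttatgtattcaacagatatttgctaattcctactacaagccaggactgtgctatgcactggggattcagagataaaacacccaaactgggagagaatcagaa
ENSG00000285155: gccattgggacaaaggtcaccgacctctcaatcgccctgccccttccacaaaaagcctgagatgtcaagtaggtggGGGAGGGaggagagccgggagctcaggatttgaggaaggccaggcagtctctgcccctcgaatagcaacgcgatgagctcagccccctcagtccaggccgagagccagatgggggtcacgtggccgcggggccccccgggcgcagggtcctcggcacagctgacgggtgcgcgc
G and C made up 50.4%, 32.0% and 41.3% of the first 3 stretches, and neither word occurred in them. The stretch at ENSG00000285155 had 66.0% and held the C-rich word once, so the control stretches were not alike in composition. A match, or the lack of one, describes these letters only. The CRLM1-OE stretches were taken at gene starts and the control stretches were not, so the sets shown do not compare the groups.

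More genes were met with CRLM1-OE under both rules, and the excess was larger at gene starts. Under the gene rule the CRLM1-OE lists met 3348 and 2913 genes and the empty control lists 1182 and 1824. The means were 3130.5 ± 308 and 1503 ± 454 (SD, n = 2 each), a ratio of 2.08, and the groups did not overlap (exact permutation test, two-sided, p = 0.333). Under the start rule the lists met 638 and 898 genes against 115 and 254. The means were 768 ± 184 and 184.5 ± 98.3 (SD, n = 2 each), a ratio of 4.16, again without overlap (exact permutation test, two-sided, p = 0.333). With every list limited to its 1619 highest-scoring peaks, the length of the shortest list, the differences were smaller, with 1427 and 1758 against 1182 and 1164 genes under the gene rule and 333 and 657 against 115 and 191 under the start rule. The difference of the means fell from 1627.5 to 419.5 genes under the gene rule and from 583.5 to 342 under the start rule. With 2 lists against 2, 0.333 is the smallest p the design allows, so no difference between the groups could pass 0.05.

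Protein-coding genes made up more of the genes met at their start with CRLM1-OE. The protein-coding share was 51.9% (95% Wilson interval 48.0 to 55.7%) and 57.8% (54.5 to 61.0%) in CRLM1-OE, against 33.0% (25.1 to 42.1%) and 42.9% (37.0 to 49.1%) in the empty control. The intervals cover counting error only, and that of CRLM1-OE replicate 1 overlapped that of empty control replicate 2. The group means differed by 16.9 percentage points without overlap of the lists (exact permutation test, two-sided, p = 0.333, n = 2 each). When any transcript start of a gene counted, the difference was 8.87 points. Under the gene rule the shares were 63.5% and 64.5% against 59.3% and 62.7%, a difference of 3.03 points (exact permutation test, two-sided, p = 0.333, n = 2 each).

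Of the 710 genes met by both CRLM1-OE lists under the gene rule, 444 were met by no control list, 218 by 1 and 48 by both. The 444 genes are 0.709% of the 62663 genes of the annotation. In the other direction, 204 genes were met by both control lists and 65 of these by no CRLM1-OE list, which is 0.104% of all genes. Under the start rule 107 of the 140 genes met by both CRLM1-OE lists were met by no control list (0.171% of all genes), whereas 1 of the 14 genes met by both control lists was met by no CRLM1-OE list (0.0016%). As a share of each pair, 76.4% of the starts shared by the CRLM1-OE lists and 7.14% of those shared by the control lists were particular to their pair by this count. Longer lists meet more genes, so these counts also carry the difference in peak number. At equal list length the counts were 198 against 82 genes under the gene rule and 63 against 1 under the start rule.

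Whether both lists of a pair met a gene at the same place depended on the rule. The peaks of both CRLM1-OE lists overlapped by at least 1 bp at 96 of the 107 genes of the start rule and at 165 of the 444 genes of the gene rule. At the genes of the empty control group, they overlapped at 7 of 65 under the gene rule and at the 1 gene of the start rule. The start rule leaves a short window in which peaks of both lists must fall, and the difference between the groups was not tested. In the rest, each list met another part of the gene, and median gene length was 174 kb in the empty control group, 44.1 kb in the CRLM1-OE group of the gene rule and 3.67 kb in that of the start rule, where the median of all genes is 3.62 kb. Counted as separate loci, where neighbouring genes that share a peak count once, the 107 genes stood at 74 loci, the 444 genes at 324 and the 65 genes at 62.

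The peaks at the 107 starts were among the stronger and wider ones of their lists. Over the 107 genes, the median score rank of the best peak was 21.2% in CRLM1-OE replicate 1 and 7.30% in replicate 2. At 36 and 61 of the 107 genes the best peak ranked in the best 10% of the list. Genes that share a peak count each for themselves here, and the distinct best peaks numbered 76 and 75. Median width was 928 and 1716 bp, where all peaks of the lists had medians of 506 and 747 bp. The genes were selected by a peak in both lists that reached a fixed window, and the best peak was kept. Such a selection can favour strong and wide peaks, so rank and width are no separate finding. Ranks and widths of all peaks near starts were not compared. Under the gene rule the best peaks of the 444 genes of the CRLM1-OE group had median ranks of 29.2% and 24.3% and widths of 604 and 1027 bp, and those of the 65 genes of the empty control group ranks of 53.9% and 49.4% and widths of 680 and 513 bp. The lists differ in length, so these ranks describe a place in the own list only. The peak covered the TSS itself at 49 of the 107 genes in replicate 1 and at 74 in replicate 2, and the peak midpoint lay 312 and 285 bp downstream of the TSS in the median. A control peak lay within 10 kb of the start at 15 of the 107 genes and within 50 kb at 33.

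The protein-coding genes with the best ranks in the CRLM1-OE group had varied functions. These are the 15 that ranked first among the 51 protein-coding genes met at their start by both CRLM1-OE lists and under neither rule by a control list. FAM83E ranked first, with scores of 122.5 and 326.49 and score ranks of 1.91% and 0.443% in replicates 1 and 2. CCDC85B followed with ranks of 1.11% and 1.45%, and its peak in replicate 2, 4319 bp wide, also covered the start of FIBP, a protein that binds fibroblast growth factor 1. CD68, a lysosomal glycoprotein best known from macrophages, had ranks of 1.75% and 0.917%.

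Metabolic genes were among the 15. NDUFB10, a subunit of respiratory complex I, had ranks of 1.82% and 1.26%. PKM, the pyruvate kinase of glycolysis, had ranks of 2.42% and 0.696%, and both of its peaks began 3′ of the annotated TSS. ISYNA1, which makes inositol phosphate from glucose 6-phosphate, had ranks of 0.599% and 5.22%, and both peaks covered its start. At each of these 3 genes the peaks of both replicates overlapped.

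Genes for RNA-binding proteins and regulators were among them too. CIRBP, the cold-inducible RNA-binding protein, had ranks of 0.576% and 2.31%. PCBP2, a KH domain protein that binds C-rich RNA like hnRNPK, had ranks of 1.41% and 8.54%. CCN1, a secreted matrix protein induced early by growth factors, had ranks of 2.60% and 0.948%, and ATF4, the transcription factor of the integrated stress response, had ranks of 8.50% and 5.03%. SAE1, a subunit of the enzyme that activates SUMO, and ZC3H4, a zinc finger protein that restrains noncoding transcription, were met by the same peaks, which covered the start of SAE1 and lay just inside ZC3H4, with ranks of 2.03% and 6.07%. INSR had ranks of 2.51% and 5.66%, with peaks 697 and 1113 bp wide over its start. ZNF34, a zinc finger gene, had ranks of 8.30% and 0.759%.

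**Figure D1:**
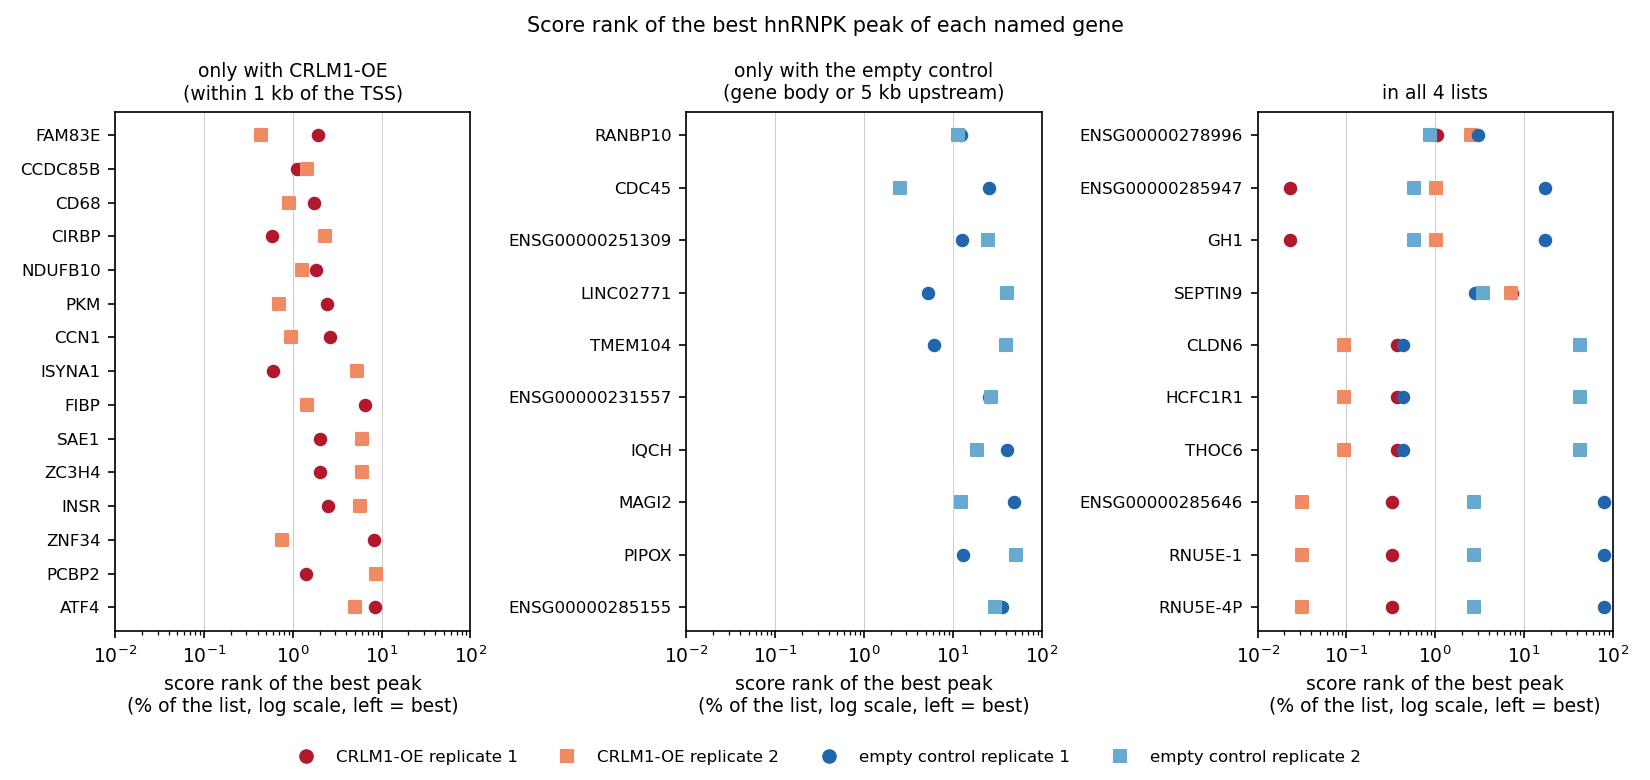
Score rank of the best peak of each named gene in percent of its list on a log axis (left is stronger), 1 point per list, for genes met only with CRLM1-OE at the TSS, only with the empty control, and by all 4 lists. The genes were chosen by this rank, under the start rule in the first panel, where they lie between 0.443% and 8.54%, and under the gene rule in the second, where they lie between 2.57% and 51.1%, so the panels are no comparison.

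**Figure D2:**
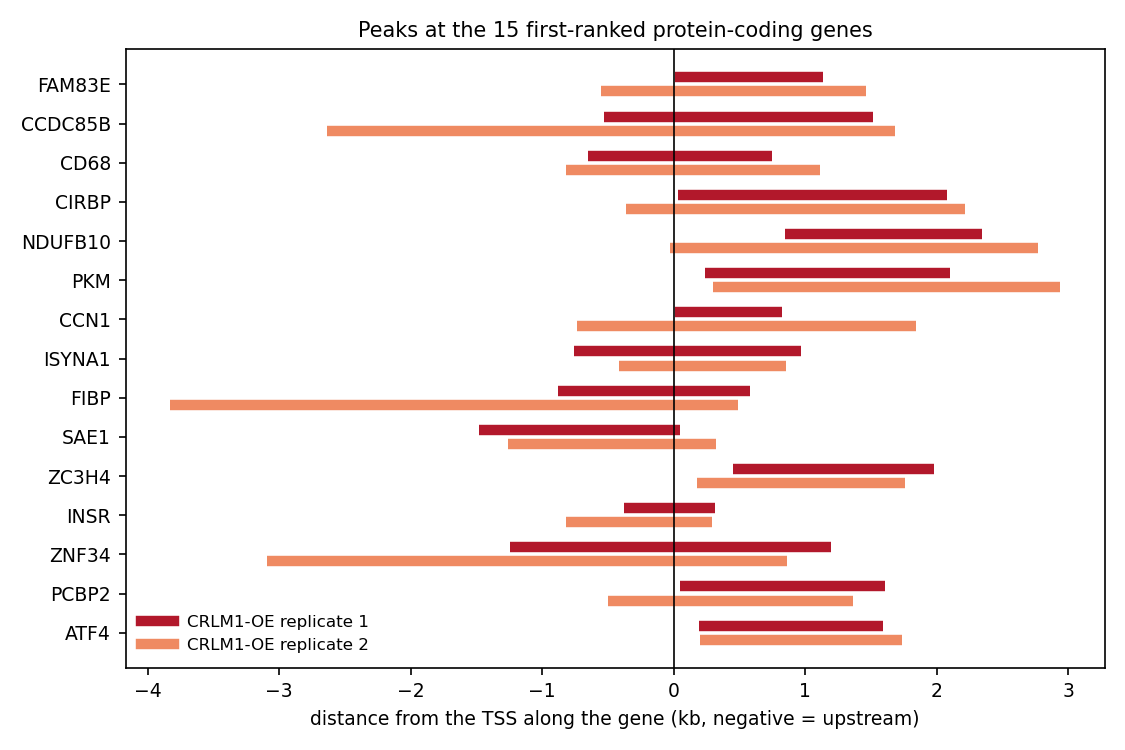
Extent of the best peak of both CRLM1-OE lists at the 15 first-ranked protein-coding genes, in kb from the TSS along the gene, 1 bar per list. No control list had a peak on these genes, and at each gene the bars of the 2 lists overlap.

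Small nucleolar RNA (snoRNA) genes, whose products guide chemical modification of ribosomal and spliceosomal RNA, held a larger share in the CRLM1-OE group at their starts than each of the other classes counted. Of 942 snoRNA genes 17 belonged to it (1.80%), compared with 55 of 20033 protein-coding genes (0.275%), 24 of 18866 lncRNA genes (0.127%) and 3 of 14996 pseudogenes (0.0200%), beside 0.171% of all genes. No snoRNA gene belonged to the empty control group or was met by all 4 lists. Per list, 21 and 42 snoRNA genes were met at their start in CRLM1-OE and 2 and 6 in the empty control. In lists of equal length the counts were 14 and 39 against 2 and 2, and 13 snoRNA genes belonged to the CRLM1-OE group.

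All 17 snoRNA genes lie inside a host gene on the same strand, at 11 host loci. Hosts that encode parts or assembly factors of the ribosome and of translation were RPS2 (SNORA10 and SNORA64), RPL23A (SNORD4B), RPL3 (SNORD43), RPL10 (SNORA70), NOP56 (SNORD56 and SNORD57) and EIF4A1 (SNORA48 and SNORA67). Noncoding hosts were SNHG12 (SNORD99), SNHG19 (SNORD60 and an overlapping record) and SNHG25 (SNORD104, SNORA50C and an overlapping record), and the others were TMEM107 (SNORD118) and TEX14 (a U3 gene). The snoRNAs themselves are short, and the peaks often lay beside them. SNORA67 was met through the peak pair over CD68, with midpoints 1583 and 1683 bp from its start, and SNORA10 through the pair over NDUFB10, with midpoints 1329 and 1558 bp away. When the peak midpoint had to lie in the window, 7 snoRNA genes were left in the CRLM1-OE group, and with a 500 bp window 10. U3 exists in near-identical copies, so the placement of its reads is uncertain.

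Other noncoding genes ranked with them. ENSG00000267598, a lncRNA gene on chromosome 19, had scores of 109.02 and 347.75 and ranks of 2.79% and 0.285%, and ENSG00000262413, a lncRNA gene on chromosome 17, had ranks of 3.04% and 0.348%. At SNHG25 the peaks of both lists, 2329 and 3526 bp wide, covered the host start and its snoRNAs together, with ranks of 2.14% and 1.77%. These 3 loci had no control peak on the gene or 5 kb upstream.

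Genes of spliceosomal small nuclear RNAs (snRNA) did not follow 1 pattern. RNU5A-1, RNU5D-1 and RNU4ATAC, which encode U5 and minor U4 snRNAs, were met at their start by both CRLM1-OE lists and neither control list. RNU5F-1 and RNU12, the U12 snRNA gene, were met by both CRLM1-OE lists and by control replicate 2, RNU2-2P by both CRLM1-OE lists and control replicate 1, and RNU5E-1 and RNU5E-4P by all 4 lists. RNU6-1 was met by CRLM1-OE replicate 1 and both control lists, RNU4-1 and RNU4-2 by CRLM1-OE replicate 2 and control replicate 1, and RNU2-37P by CRLM1-OE replicate 1 and control replicate 2. These names were chosen after their values were seen, as the snRNA genes met by 2 or more lists. The U5 copies are near-identical in sequence, and how reads were shared among them by the authors' alignment is not known.

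Among the gene lists examined, host genes of snoRNAs and immediate-early genes held the largest shares in the CRLM1-OE group under the gene rule. Of 28 genes named SNHG, 7 and 11 were met by the CRLM1-OE lists and 1 and 1 by the control lists. The CRLM1-OE group held 6 of them (21.4%), SNHG6, SNHG9, SNHG16, SNHG19, SNHG25 and SNHG29, where it held 0.709% of all genes, 0.562% of lncRNA genes and 1.55% of protein-coding genes (311 of 20033). All 6 calls were also made in lists of equal length, and the best peaks of both lists overlapped at 4 of the 6. SNHG19 had ranks of 21.2% and 0.221%, and SNHG29 of 22.98% and 2.91%.

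Immediate-early and stress-response genes are switched on within minutes to hours of a stimulus. Of 56 such genes 16 and 19 were met with CRLM1-OE and 1 and 4 with the empty control. The CRLM1-OE group held 9 of them (16.1%), beside 0.709% of all genes and 1.55% of all protein-coding genes. Transcription factors among them were FOSL1 and JUND of the AP-1 family, KLF2, and the nuclear receptor NR4A2. ZFP36 and ZFP36L1 promote decay of mRNAs with AU-rich elements, PPP1R15A and GADD45B act in stress recovery, and CCN1 is described above. PPP1R15A had ranks of 2.07% and 4.02%, although the peak of replicate 1 lay over its start and that of replicate 2 lay 3511 bp downstream. ZFP36 had ranks of 27.0% and 0.411%, and GADD45B of 34.8% and 0.190%. FOSL1 was met by the peak pair over CCDC85B, whose midpoints lay 9405 and 10373 bp from its start. The best peaks of both lists overlapped at 5 of the 9 genes. In lists of equal length 8 of the 56 genes belonged to the CRLM1-OE group and 0 to the control group, beside 130 and 57 of all 20033 protein-coding genes. KLF2 was the gene lost there, with ranks of 89.0% and 62.7%.

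Ribosomal protein genes were met mainly by 1 of the CRLM1-OE lists. Of 86 ribosomal protein genes, 6 were met in replicate 1, 32 in replicate 2, and 0 in either control list. The 5 in the CRLM1-OE group (5.81%, beside 1.55% of all protein-coding genes) were RPS2, RPS19, RPL3, RPL10 and RPL3L. RPS19 had ranks of 18.97% and 0.316%, with both peaks at its 3′ end, and RPL3, which encodes a protein of the large subunit, had ranks of 10.1% and 7.30% with both peaks near its start, with midpoints 924 and 1062 bp downstream. RPL3L lies next to NDUFB10 and was met upstream by the same peaks. Of 70 initiation and elongation factor genes, 11 and 10 were met with CRLM1-OE and 2 and 2 with the empty control. EEF1A1, EIF4A1 and EIF3G belonged to the CRLM1-OE group (4.29%). EEF1A1, the factor that brings aminoacyl-tRNA to the ribosome, had 2 and 3 peaks with best ranks of 1.29% and 0.601%. EIF4A1, the helicase of cap-dependent initiation, had best ranks of 1.75% and 0.917% through the peaks over CD68. In lists of equal length, 3 ribosomal protein genes and 2 factor genes belonged to the CRLM1-OE group.

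Housekeeping genes were also met more often in CRLM1-OE replicate 2 than in replicate 1. Of 36 housekeeping genes, 6 were met in replicate 1 and 18 in replicate 2, against 0 and 2 in the control lists. PKM, EEF1A1, HSPA5, the chaperone of the endoplasmic reticulum, and PTMA, a chromatin-associated nuclear protein, made up the CRLM1-OE group. They are 11.1% of the list, beside 1.55% of all protein-coding genes. HSPA5 had ranks of 4.01% and 4.55%, with overlapping peaks at its 3′ end. Of 21 abundant nuclear lncRNA genes, 3 and 6 were met with CRLM1-OE and 0 and 1 with the empty control. The CRLM1-OE group held 3 of them (14.3%), beside 0.562% of all lncRNA genes. MALAT1, a lncRNA of nuclear speckles, had ranks of 7.28% and 1.74%, while NEAT1, the scaffold of paraspeckles, had ranks of 36.3% and 81.8% at separate places. GAS5, a snoRNA host, had ranks of 93.8% and 4.14%. In lists of equal length all 4 housekeeping genes and 1 of these 3 lncRNA genes, MALAT1, belonged to the CRLM1-OE group.

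**Figure D3:**
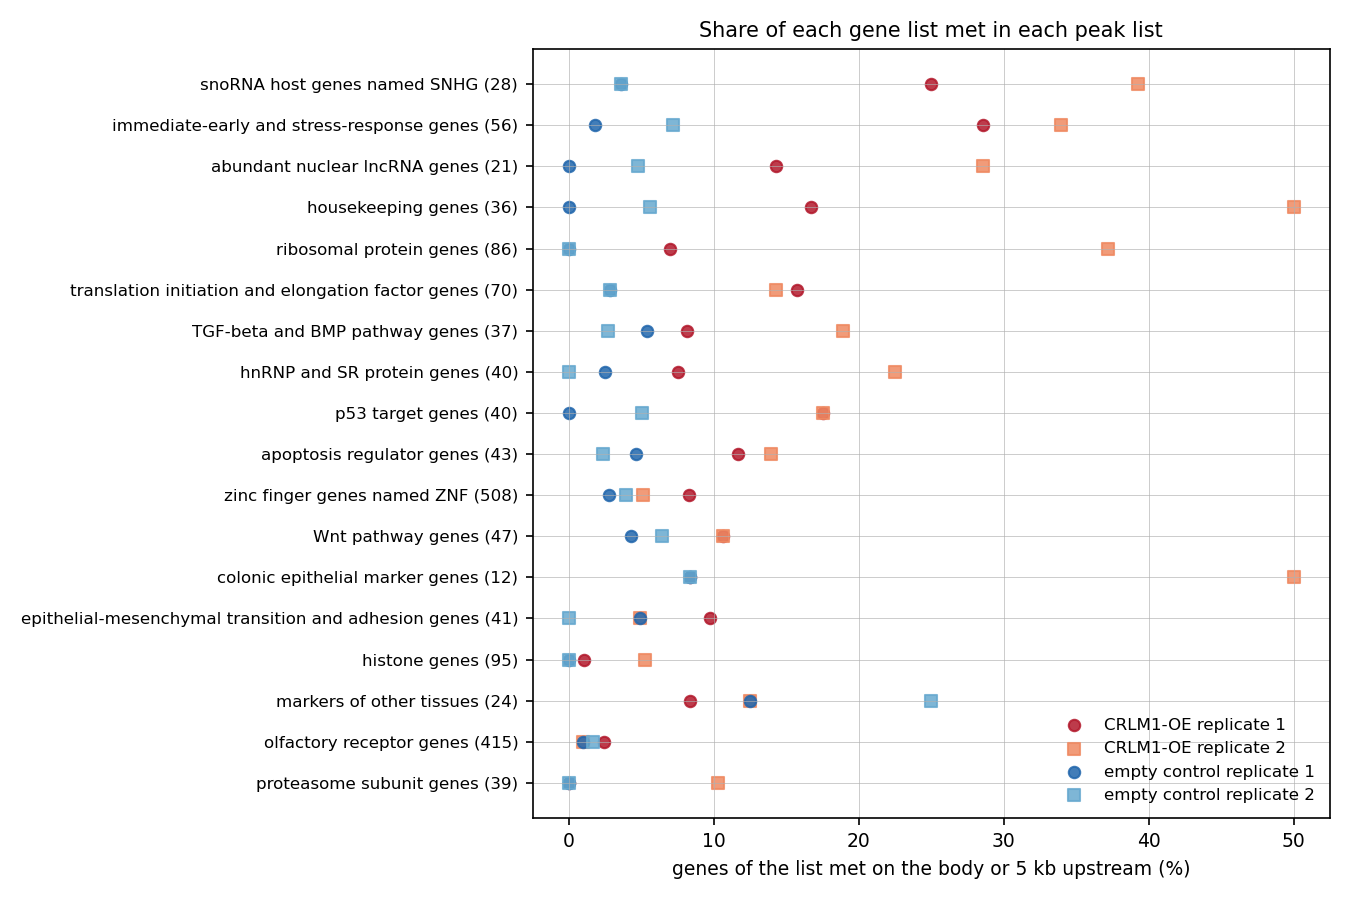
Share of the genes of each list met on the body or 5 kb upstream, in percent, 1 point per peak list, with the number of genes in brackets. Both CRLM1-OE points lie to the right of both control points for most lists, as they do for all genes (3348 and 2913 against 1182 and 1824), so the side alone sets no list apart. Colonic markers, epithelial-mesenchymal transition genes, markers of other tissues, olfactory receptor genes and proteasome subunits are the lists where the points of the groups meet or cross.

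The lists of p53 target, apoptosis, TGF-beta and BMP, and Wnt genes each had at most 1 gene in each group. Of 40 p53 target genes, 7 and 7 were met with CRLM1-OE and 0 and 2 with the empty control, and FBXW7, a substrate receptor of a ubiquitin ligase, belonged to the CRLM1-OE group with weak peaks at separate places (ranks of 87.8% and 64.1%). Of 43 apoptosis regulators, 5 and 6 were met against 2 and 1, and TRADD, the adaptor of TNF receptor 1, belonged to the CRLM1-OE group with ranks of 5.09% and 21.9%. Of 37 TGF-beta and BMP genes, 3 and 7 were met against 2 and 1. BMPR1B, a BMP receptor, fell in the CRLM1-OE group with ranks of 90.8% and 23.4%, and SMAD9 in the empty control group with ranks of 59.5% and 8.17%. The 1 gene in the CRLM1-OE group was 2.50% of the p53 list, 2.33% of the apoptosis list and 2.70% of the TGF-beta and BMP list, where the share of all protein-coding genes was 1.55%, and each of these shares rests on that 1 gene. Of 47 Wnt genes, 5 and 5 were met against 2 and 3, and LRP5, a Wnt coreceptor, fell in the empty control group at the bottom of both lists (ranks of 93.6% and 99.2%).

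Lists without any gene in either group were histone genes (95), olfactory receptor genes (415), proteasome subunits (39), epithelial-mesenchymal transition and adhesion genes (41), colonic epithelial markers (12) and markers of other tissues (24). The CRLM1-OE group held 1.55% of all protein-coding genes and the empty control group 0.225%. For the smaller of these lists such shares amount to few or no genes, so the absence does not set them apart. SRSF2, a splicing factor, was the 1 gene of 40 hnRNP and SR protein genes in the CRLM1-OE group (2.50%). It was met at its start in replicate 1 and with the peak midpoint 3626 bp downstream in replicate 2, with ranks of 26.2% and 18.8%. Of 508 genes named ZNF, 5 belonged to the CRLM1-OE group (0.984%), between the 0.709% of all genes and the 1.55% of protein-coding genes. Of the colonic markers, 1 and 6 of 12 were met with CRLM1-OE and 1 and 1 with the empty control.

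The groups differed by gene length, and in the full lists both held a larger share of the longest genes than of the shortest. Of 5132 protein-coding genes under 10 kb, 60 belonged to the CRLM1-OE group (1.17%) and 0 to the empty control group. Of all protein-coding genes, the groups held 1.55% and 0.225%, so the share of short genes in the CRLM1-OE group was not raised. Peaks of both CRLM1-OE lists overlapped at 43 of these 60. In genes over 300 kb the counts were 55 of 826 (6.66%) and 19 (2.30%), and peaks of both CRLM1-OE lists overlapped at 2 of the 55. In lists of equal length the groups held 130 and 57 of all 20033 protein-coding genes. The short genes still fell to CRLM1-OE there, with 45 against 0. The long genes turned, with 11 in the CRLM1-OE group (1.33%) and 33 in the empty control group (4.00%). Between 100 and 300 kb the counts were then 18 and 13. Per list of equal length, 132 and 219 genes under 10 kb were met with CRLM1-OE and 36 and 64 with the empty control, whereas 147 and 136 genes over 300 kb were met with CRLM1-OE and 225 and 162 with the empty control. In both classes the groups did not overlap. The excess of long genes with CRLM1-OE in the full lists is not seen at equal peak number. A long gene offers more bases to a peak placed anywhere.

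**Figure D4:**
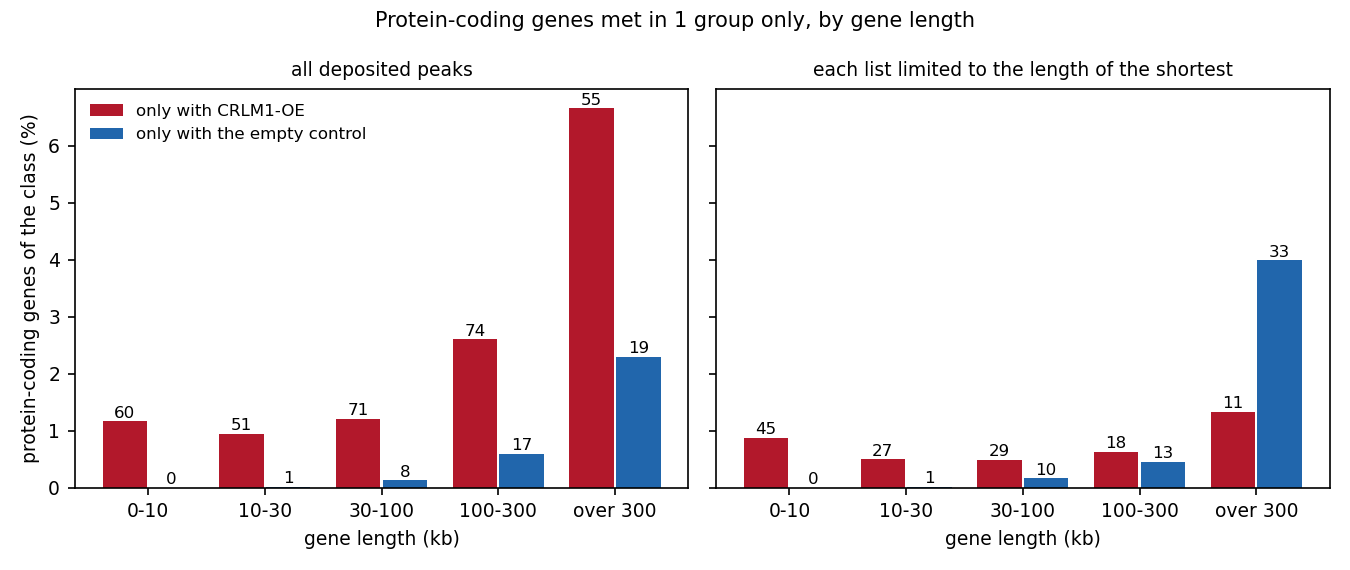
Share of protein-coding genes met on the body or 5 kb upstream in 1 group only, in percent of the genes of each length class, with the number of genes above each bar, for all peaks (left) and with every list limited to its 1619 highest-scoring peaks (right). Bars under 10 kb hold 60 and 0 genes on the left and 45 and 0 on the right, and over 300 kb the order of the groups turns from 55 and 19 to 11 and 33.

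Base composition was read from the genome under the peaks. The 76 and 75 distinct best peaks at the starts of the CRLM1-OE group had a median G+C content of 64.2% and 61.5%, where all peaks of these lists had 43.3% and 42.3%. The ratio of observed to expected CpG was 0.662 and 0.631, against 0.210 and 0.219 for all peaks. Peaks near starts can be G+C-rich in any list, so all peaks within 1 kb of a gene start were compared as well. Their median G+C content was 61.5% and 60.8% in CRLM1-OE (504 and 602 peaks) and 45.3% and 56.3% in the empty control (92 and 211 peaks). Both CRLM1-OE values lay above both control values. Under the gene rule, best peaks had 47.7% and 49.6% at the genes of the CRLM1-OE group and 39.8% and 40.7% at those of the empty control group, where all control peaks had 37.4% and 43.9%.

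Short words were counted in the same peaks. The word CCCTCCC, on either strand, occurred 1.94 and 1.71 times per kb in the best peaks at the CRLM1-OE starts, compared with 0.698 and 0.841 per kb over all peaks of the lists. In all peaks within 1 kb of a start it occurred 1.83 and 1.58 times per kb with CRLM1-OE and 1.04 and 1.80 with the empty control, so the groups overlapped. The GC box GGGCGG, on either strand, occurred 3.90 and 3.53 times per kb in those peaks with CRLM1-OE and 1.38 and 3.07 with the empty control, without overlap. In the window from 250 bases before to 50 after each start, 26 of the 55 protein-coding genes of the CRLM1-OE group held CCCTCCC (47.3%), where 29.3% of all 20033 protein-coding genes did. This share was 42.3% and 34.1% for all protein-coding genes met at their start by the CRLM1-OE lists and 42.1% and 47.7% for those met by the control lists. GGGCGG was held by 43 of the 55 (78.2%) and by 52.4% of all protein-coding genes, and by 71.9%, 72.4%, 76.3% and 69.7% of those met in the 4 lists. For both words the groups overlapped in this share.

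**Figure D5:**
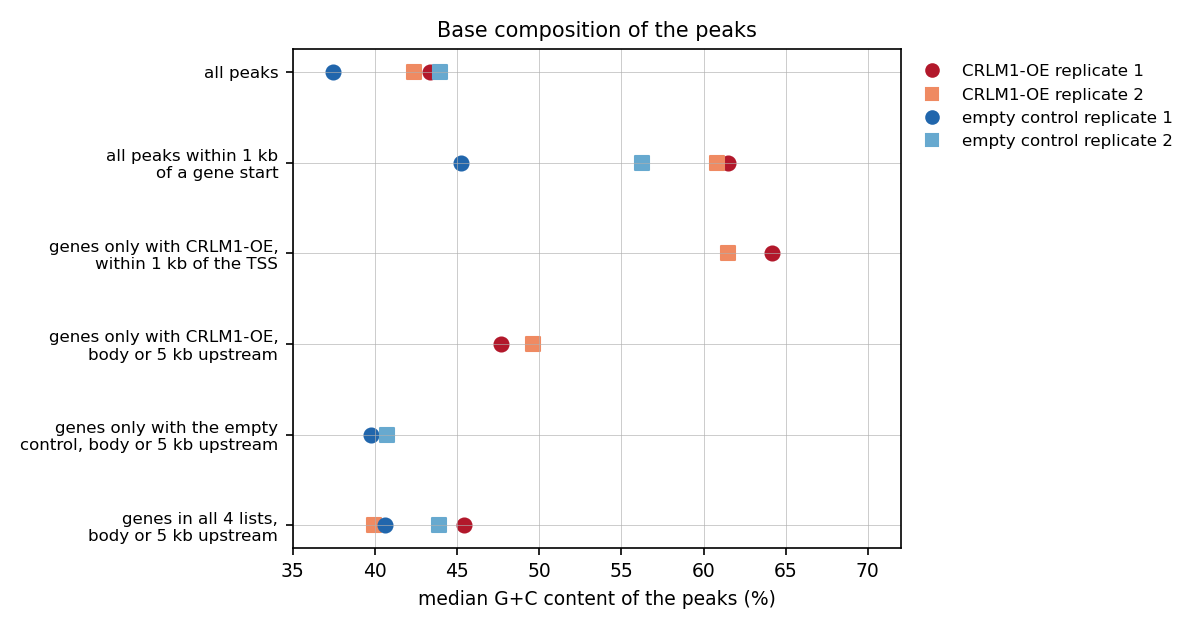
Median G+C content of peaks in percent, 1 point per list, for all peaks, all peaks within 1 kb of a gene start, and the best peaks of the gene groups. The start peaks of the CRLM1-OE group lie at 64.2% and 61.5%, and under the gene rule the peaks of the CRLM1-OE group lie at 47.7% and 49.6% and those of the empty control group at 39.8% and 40.7%.

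The CRLM1-OE genes were spread unevenly over the chromosomes. Chromosomes 16, 17 and 19 hold 14.2% of all genes and held 46 of the 107 genes of the start rule (43.0%) and 141 of the 444 of the gene rule (31.8%). Chromosome 19 alone held 18 of the 107 and 56 of the 444. The empty control group had 9 of 65 genes (13.8%) on these 3 chromosomes and 0 on chromosome 19. Genes that share a peak count each for themselves in these numbers. These 3 chromosomes are those with the most genes of the CRLM1-OE group under both rules, so their share is high by choice. The share of these chromosomes among all genes met by each list was not counted, and whether the excess is particular to the group was not tested.

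Genes met only with the empty control were mostly long. Counting 1 best peak per gene and list, the midpoints of 118 of 130 lay in introns. RANBP10, a Ran-binding protein, ranked first with ranks of 12.5% and 11.5%, at separate places in its introns. CDC45, a component of the replicative helicase, had ranks of 25.8% and 2.57%. LINC02771 had ranks of 5.25% and 40.6% at overlapping places, and TMEM104, a membrane protein, 6.18% and 39.9%. IQCH, MAGI2, a scaffold protein of cell junctions whose gene spans 1436613 bp, and PIPOX, a peroxisomal oxidase, had ranks between 12.4% and 51.1%. The others among the first 10 were ENSG00000251309, ENSG00000231557 and ENSG00000285155, all lncRNA genes. SKOR1-AS1, an antisense lncRNA gene on chromosome 15, was the 1 gene met at its start only with the empty control, with ranks of 28.8% and 33.1% and peaks centred upstream of it. CRLM1-OE replicate 1 had an overlapping peak there, over the snRNA gene RNU6-1, with a score of 396.71 and a rank of 0.277%, which began just beyond the 1 kb window of SKOR1-AS1, so this call rests on the edge of the window.

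Starts met by all 4 lists stood at 2 loci. On chromosome 1, RNU5E-1, RNU5E-4P and the lncRNA gene ENSG00000285646 shared a peak that ranked 0.323% and 0.0316% with CRLM1-OE and 80.7% and 2.76% with the empty control. On chromosome 16, HCFC1R1, a regulator of HCFC1, and THOC6, a subunit of the THO complex of mRNA export, shared a peak with ranks of 0.369% and 0.0948% against 0.432% and 42.8%. The neighbouring gene CLDN6, a tight junction claudin, was met upstream by the same peaks. By place in the list the peak at HCFC1R1 and THOC6 stood at 16 of 4339 in CRLM1-OE replicate 1 and at 7 of 1619 in empty control replicate 1, so the order of the groups there depends on list length.

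Under the gene rule, the genes that ranked best across all 4 lists were ENSG00000278996, a lncRNA gene on chromosome 21, with ranks between 0.882% and 3.03%, and GH1, the growth hormone gene, with the overlapping record ENSG00000285947. The peak at the 3′ end of GH1 was the highest-scoring peak of CRLM1-OE replicate 1 (score 822.12), and its ranks were 1.01% in replicate 2 and 17.4% and 0.575% in the control lists. SEPTIN9, a cytoskeletal septin, had ranks between 2.78% and 7.35%.

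Genes named by the study for hnRNPK or CRLM1 were examined by peak in each list. KLF6, a zinc finger tumour suppressor, had 2 and 1 peaks with CRLM1-OE and 0 and 2 with the empty control. Its best peak was centred upstream of the start with ranks of 0.507% and 1.49% in CRLM1-OE and 4.18% in empty control replicate 2. BBC3, the proapoptotic BCL2 family protein PUMA, had 2 and 1 peaks against 0 and 1, with ranks of 0.807%, 8.41% and 1.84% at overlapping places within the gene. Both genes were thus met in 3 of 4 lists and belonged to neither group. SMAD6, an inhibitor of BMP signalling, had 1 peak in CRLM1-OE replicate 1 (rank 70.1%), and BMP7 and SMURF2 had none in any list. The paper names SMAD6, BMP7 and SMURF2 for changes in expression, and its text names no hnRNPK peak at them. HNRNPK itself had 1 peak, in CRLM1-OE replicate 2 (rank 46.3%). The CRLM1 gene, LINC01767, at chr1:56414918-56417137 in GENCODE, had 2 peaks in CRLM1-OE replicate 2, with ranks of 0.664% and 0.885%, and 0 in the other 3 lists. The paper gives the gene a span that reaches further 3′ than this record, and peaks beyond the record were not counted. The lists do not tell the chromosomal copy of that gene from copies on a construct.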

How the data were processed

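hnRNPK ChIP-seq peak lists of HCT116 cells with CRLM1-OE and with the empty control were analysed, 2 per group as labelled, and the antisense lists were left aside. Per the study's methods and the labels, the authors trimmed reads with cutadapt, aligned them to GRCh38 with Bowtie2 and called peaks per replicate against the matching input with MACS2. The deposited files hold, without a header, chromosome, start, end, name and a score per peak. The scale of the deposited score is not stated, none lay under 50, and it was used only to rank peaks within a list. Every peak used had coordinates that fit the hg38 chromosome lengths. The number of value columns left unmatched was 0.

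Genes were those of GENCODE release 44, 62663 on chromosomes 1 to 22, X and Y, of which 20033 are protein-coding. This may differ from the annotation of the authors. A gene was met when at least 1 bp of a peak fell on the body or 5 kb upstream, or within 1 kb of the TSS. Group means were compared with a two-sided exact permutation test, and counts of genes have no test. Python 3.11.15, numpy 2.4.6, scipy 1.17.1 and matplotlib 3.10.9 were used. The overlap code was tested on simulated peaks and found 200 of 200 planted genes under each rule.

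The genes named in the text were the 15 protein-coding and 5 noncoding genes with the best mean score rank at starts met only with CRLM1-OE, the first 10 met only with the empty control, the first 5 met by all 4 lists, members of 18 gene lists that fell in 1 group, and 7 genes of the study. Genes that share a peak were named together. The members, the rules and the gene lists were chosen with earlier results of these data known. Alternatives were other numbers of peaks per list, other overlap rules and windows, protein-coding genes alone, leaving out each list, and a replicate block. The length classes, the snoRNA class and the chromosomes singled out were chosen after seeing the data. Sequences came from the RefSeq promoter table (GRCh38.p14) and from hg38. Read counts were not used here, so depth per library is unknown.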

Additional observations from a re-analysis of the deposited data

How the results depend on the processing

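The 2 groups share replicate numbers, and the labels do not say whether a number marks a shared culture or day. Over 7317 genes met by any list under the gene rule, deviations of same-numbered lists correlated at -0.0094, and over 1661 genes under the start rule at -0.030. Most of these genes were met by 1 list only, which holds the correlation near 0, so it cannot decide whether the numbers pair the lists. With the replicate number as a block, the paired differences were 1627.5 genes, 583.5 genes, 3.03 points and 16.9 points, each with exact p = 0.5, the smallest a sign-flip test of 2 pairs allows.

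All group differences in genes met and in protein-coding share kept their direction under every alternative run. The counts of genes in 1 group moved. The CRLM1-OE count under the gene rule, 444, became 158 with the 1000 highest-scoring peaks, 198 at the length of the shortest list and 239 above the median score, and 519 to 2603 when 1 list was left out. The empty control count, 65, became 32 with 1000 peaks, 29 above the median score, and 99 to 1102 when 1 list was left out. The CRLM1-OE count under the start rule, 107, became 58 with 1000 peaks, 63 at the shortest length, 66 by midpoint and 55 for protein-coding genes alone, and 113 to 828 when 1 list was left out. The empty control count there, 1, became 2 with 1000 peaks, 5 with any transcript start, 0 by midpoint, 0 for protein-coding genes alone and 0 with a 500 bp window, and 3 to 181 when 1 list was left out. Fewer peaks, a smaller interval or 1 list in place of 2 make these counts smaller or larger by construction. The size of the group differences moved too. Over all alternatives the difference in genes met ran from 366 (1000 peaks) to 1948.5 under the gene rule (main 1627.5) and from 281.5 (1000 peaks) to 746.5 under the start rule (main 583.5). The difference in protein-coding share ran from 1.35 to 6.13 points under the gene rule (main 3.03) and from 8.87 (any transcript start) to 21.8 points under the start rule (main 16.9).

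Depth is unknown and each group has 2 lists, so a gene without a peak in a list was not shown to lack occupancy.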
